A study of Mus musculus with 120 samples.

Results

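The D-type cyclins Ccnd1, Ccnd2 and Ccnd3, their partner kinases Cdk4 and Cdk6, the Kip inhibitors Cdkn1b and Cdkn1c, and the retinoblastoma gene Rb1 were followed in single cells of the embryonic mouse inner ear. These 8 genes are 8 of the 48371 gene symbols measured. They were chosen by name as machinery of the G1 phase of the cell cycle, with their FPKM values in these same cells already known, so their levels are given as a description and no test was made of them. All 8 were found in the deposited table under the gene identifiers that the mouse annotation gives them.

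The cells came from the endolymphatic sac, a closed pouch of the inner ear that holds endolymph, at E14.5 of embryonic development. They were taken from Sox9Y440X/+ animals, heterozygous for an allele of the transcription factor gene Sox9 named for a premature stop codon (62 cells), and from wild-type animals (58 cells). RNA was read cell by cell with Smart-seq2, which covers whole transcripts but does not mark the strand of a read. Values are FPKM, that is, fragment numbers corrected for the length of the transcript and for all fragments of the cell. The labels give no strain, litter, sex or animal for any cell, so each genotype counts as 1 sample, and genotype and preparation cannot be told apart. SDs are over cells, and intervals on shares of cells are exact Clopper-Pearson 95% intervals that cover counting error only.

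D-type cyclins join the cell cycle to outside signals. A cyclin binds CDK4 or CDK6, the pair phosphorylates the retinoblastoma protein, and this releases the E2F factors that turn on genes of DNA replication. The Kip proteins p27 (Cdkn1b) and p57 (Cdkn1c) bind cyclin and kinase together and hold cells in G1, and p57 is best known from tissues that leave the cell cycle in the embryo. The 3 D-type cyclins are close relatives, encoded on different chromosomes and used to different degrees by different tissues.

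The opening codons show what the 3 cyclins share and where they part. Each begins with the short leucine, cysteine and glutamate motif through which D-type cyclins bind the retinoblastoma protein, and its codons stand in capitals below, in the first 60 coding bases of the GENCODE M21 transcripts (mouse build GRCm38, 5′ to 3′ on the strand of the gene).
Ccnd1: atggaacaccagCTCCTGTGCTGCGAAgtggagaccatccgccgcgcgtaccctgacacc
Ccnd2: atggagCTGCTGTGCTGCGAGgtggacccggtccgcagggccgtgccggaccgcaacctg
Ccnd3: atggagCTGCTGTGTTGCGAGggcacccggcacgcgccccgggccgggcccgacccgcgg
Ccnd1 lies on the minus strand at chr7:144929931-144939925, Ccnd2 on the minus strand at chr6:127125162-127152193, and Ccnd3 on the plus strand at chr17:47505051-47599691. The motif fills codons 5 to 9 of Ccnd1 and codons 3 to 7 of Ccnd2 and Ccnd3. Its bases differ at 2 positions between Ccnd1 and Ccnd2, at 3 between Ccnd1 and Ccnd3, and at 1 between Ccnd2 and Ccnd3. Over the aligned coding sequences, Ccnd1 and Ccnd2 were 70.1% identical, Ccnd1 and Ccnd3 66.4%, and Ccnd2 and Ccnd3 68.9%. The longest run of bases that 2 of these mRNAs share exactly was 20, between Ccnd1 and Ccnd2.

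The Kip inhibitors carry in their amino-terminal part a motif that docks on the cyclin, shown in capitals with its neighbouring bases.
Cdkn1b: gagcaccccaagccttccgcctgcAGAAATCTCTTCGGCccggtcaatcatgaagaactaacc
Cdkn1c: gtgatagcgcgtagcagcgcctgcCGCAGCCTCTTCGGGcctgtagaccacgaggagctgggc
Cdkn1b lies on the plus strand at chr6:134920401-134925513 and Cdkn1c on the minus strand at chr7:143458339-143461050. The motif begins at codon 30 of Cdkn1b and at codon 20 of Cdkn1c, and 5 of its 15 bases differ. The kinases and Rb1 lie at chr10:127063534-127067920 (Cdk4, plus strand), chr5:3341485-3531008 (Cdk6, plus strand) and chr14:73183673-73325822 (Rb1, minus strand).

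Of the 120 cells, 115 had at least 1000 genes and were used, 58 Sox9Y440X/+ and 57 wild-type. They were grouped into 8 clusters made without the 8 genes and without the listed cell cycle genes. Cell cycle genes outside the lists were not left out, and the histone genes Hist1h2ao and Hist1h2ap were among the leading genes of cluster 4. Clusters 4 and 5 were mesenchyme-like, by markers of connective tissue, with 21 Sox9Y440X/+ cells and 1 wild-type cell, and the other 6 were epithelium-like, with 37 Sox9Y440X/+ and 56 wild-type cells. Epcam, an epithelial adhesion gene, reached FPKM 1, the limit used here for a gene to count as detected, in 1 of 21 Sox9Y440X/+ mesenchyme-like cells, 37 of 37 Sox9Y440X/+ epithelium-like cells and 55 of 56 wild-type epithelium-like cells. The mesenchyme-like cells had 1 to 11 of 12 mesenchyme markers in Sox9Y440X/+ (median 8), against 0 to 3 in Sox9Y440X/+ epithelium-like cells (median 1). Within the mesenchyme-like class, 1 Sox9Y440X/+ cell held all 7 endothelium markers and another held 3 of 5 pericyte markers. Chondrocyte markers were also higher in this class, with 0 to 4 of 6 in Sox9Y440X/+ mesenchyme-like cells (median 2) and 5 of 6 in the 1 wild-type mesenchyme-like cell, against 0 to 3 in Sox9Y440X/+ and 0 to 4 in wild-type epithelium-like cells (median 1 in both). Their mean log2(FPKM + 1) was 3.17 in cluster 4 and 2.22 in cluster 5, against 0.51 to 0.94 in the other clusters. Of the cartilage collagen genes, Col2a1 was detected in 19 of 21 Sox9Y440X/+ mesenchyme-like and 12 of 37 Sox9Y440X/+ epithelium-like cells, and Col9a1 in 18 of 21 Sox9Y440X/+ mesenchyme-like and 3 of 37 Sox9Y440X/+ epithelium-like cells. Acan and Matn1, of mature cartilage, were detected in 3 and 0 of 21 Sox9Y440X/+ mesenchyme-like cells. The part of the chondrocyte markers in the class differences below was not tested. The median number of genes per cell was 3593 in Sox9Y440X/+ mesenchyme-like, 4506 in Sox9Y440X/+ epithelium-like and 3242 in wild-type epithelium-like cells. Sox9 itself averaged 16.6 FPKM in Sox9Y440X/+ and 4.11 FPKM in wild-type epithelium-like cells, and a transcript level does not check an allele with a stop codon. Xist RNA, made from the inactive X chromosome of females, was listed at 0 in every Sox9Y440X/+ cell used and reached FPKM 1 in 34 of 56 wild-type epithelium-like cells and in the 1 wild-type mesenchyme-like cell. Xist was low even there, with a median of 2.52 FPKM over the wild-type epithelium-like cells. In a wild-type cell without Xist the transcript can have been missed, so such a cell need not be male. Sex and genotype cannot be told apart with these cells.

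The D-type cyclin that predominated differed between the classes. In Sox9Y440X/+ mesenchyme-like cells Ccnd2 was the cyclin with the highest FPKM in 17 of the 20 cells with any D-type cyclin (85%, interval 62.1% to 96.8%). In Sox9Y440X/+ epithelium-like cells it was the highest in 8 of 32 (25%, 11.5% to 43.4%), and in wild-type epithelium-like cells in 2 of 51 (3.92%, 0.478% to 13.5%). Ccnd3 was the highest in 2 of 20 Sox9Y440X/+ mesenchyme-like cells, in 23 of 32 Sox9Y440X/+ epithelium-like cells (71.9%, 53.3% to 86.3%) and in 43 of 51 wild-type epithelium-like cells (84.3%, 71.4% to 93.0%). Ccnd1 led in few cells of any group, 1 of 20 and 1 of 32 Sox9Y440X/+ cells of the mesenchyme-like and epithelium-like classes and 6 of 51 wild-type epithelium-like cells. The epithelial clusters were not alike in this in either genotype. Among the Sox9Y440X/+ cells with any D-type cyclin, Ccnd2 led in 3 of 5 and Ccnd3 in 1 of 5 in cluster 8, and Ccnd2 in 4 of 10 and Ccnd3 in 6 of 10 in cluster 2. Of the 8 Sox9Y440X/+ epithelium-like cells led by Ccnd2, 7 lay in these clusters, and in clusters 1, 3 and 6 Ccnd3 led in 4 of 4, 9 of 10 and 3 of 3 Sox9Y440X/+ cells. Among wild-type cells with any D-type cyclin, Ccnd3 led in 8 of 8, 11 of 11 and 16 of 18 in clusters 1, 3 and 6. It led in 5 of 9 in cluster 7, with Ccnd1 and Ccnd2 in 2 each, and in 2 of 4 in cluster 8, with Ccnd1 in 2.

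**Figure D1:**
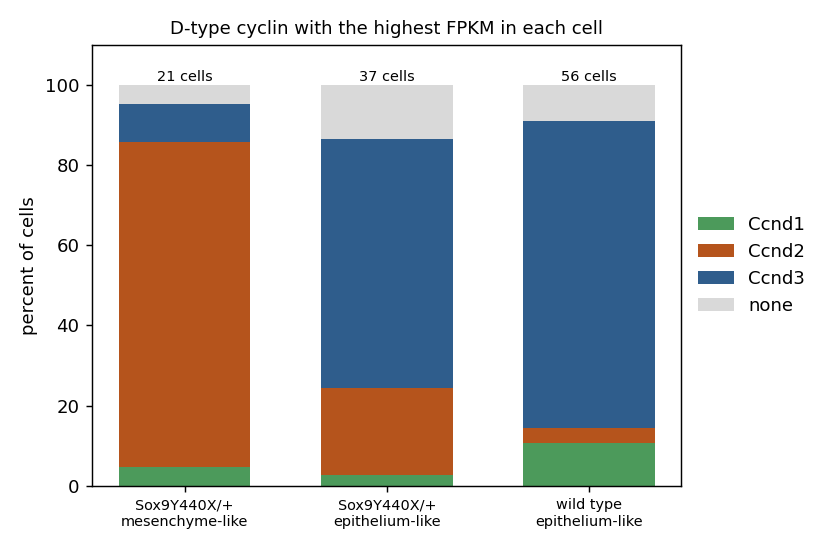
Percent of cells (vertical axis) in which Ccnd1, Ccnd2 or Ccnd3 had the highest FPKM, by group, with cells in which none reached FPKM 1 in grey. Ccnd2 led in 17 of 21 Sox9Y440X/+ mesenchyme-like cells, and Ccnd3 in 23 of 37 Sox9Y440X/+ and 43 of 56 wild-type epithelium-like cells.

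The same order appeared in the averages. Of the mean FPKM of the 3 cyclins together, Ccnd2 made up 76.1% in Sox9Y440X/+ mesenchyme-like cells, 35.6% in Sox9Y440X/+ epithelium-like cells and 5.36% in wild-type epithelium-like cells. The wild-type share rested on 1 cell, without which it was 1.58%, with mean Ccnd2 at 3.28 FPKM against 11.4 with it. By cluster, Ccnd2 made up 60.9% and Ccnd3 30.7% in Sox9Y440X/+ cells of cluster 8, and 44.4% and 47.3% in those of cluster 2. Ccnd3 made up 18% in Sox9Y440X/+ mesenchyme-like, 58.5% in Sox9Y440X/+ epithelium-like and 83.8% in wild-type epithelium-like cells. Ccnd1 made up 5.91% in Sox9Y440X/+ mesenchyme-like, 5.92% in Sox9Y440X/+ epithelium-like and 10.8% in wild-type epithelium-like cells, the smallest share in both Sox9Y440X/+ classes. The summed FPKM of the 3 cyclins had a median of 352 in Sox9Y440X/+ mesenchyme-like cells, 176 in Sox9Y440X/+ epithelium-like cells and 189.8 in wild-type epithelium-like cells, and its ranges overlapped in all 3 groups.

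Cells often held more than 1 D-type cyclin. All 3 reached FPKM 1 in 8 of 21 Sox9Y440X/+ mesenchyme-like cells, 10 of 37 Sox9Y440X/+ epithelium-like cells and 5 of 56 wild-type epithelium-like cells. Ccnd3 alone was the commonest pattern in the epithelium, seen in 14 of 37 Sox9Y440X/+ and 25 of 56 wild-type cells, against 1 of 21 Sox9Y440X/+ mesenchyme-like cells. Ccnd2 without Ccnd3 was seen in 4 of the 18 Sox9Y440X/+ mesenchyme-like cells with Ccnd2, in 0 of the 15 Sox9Y440X/+ epithelium-like cells with it and in 2 of the 8 wild-type epithelium-like cells with it. In the epithelium the pair Ccnd1 and Ccnd3 without Ccnd2 was found in 2 of 37 Sox9Y440X/+ cells (5.41%, 0.661% to 18.2%) and 15 of 56 wild-type cells (26.8%, 15.8% to 40.3%). No D-type cyclin was detected in 1 of 21 Sox9Y440X/+ mesenchyme-like cells, 5 of 37 Sox9Y440X/+ epithelium-like cells and 5 of 56 wild-type epithelium-like cells. Depth per cell is unknown and an FPKM of 0 can be a missed transcript. Of the values nearest the limit of FPKM 1, the closest below was 0.941 (Cdkn1b) and the closest above 1.02 (Cdkn1c), and Ccnd3, Cdk4 and Rb1 had no value between 0 and the limit.

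**Figure D2:**
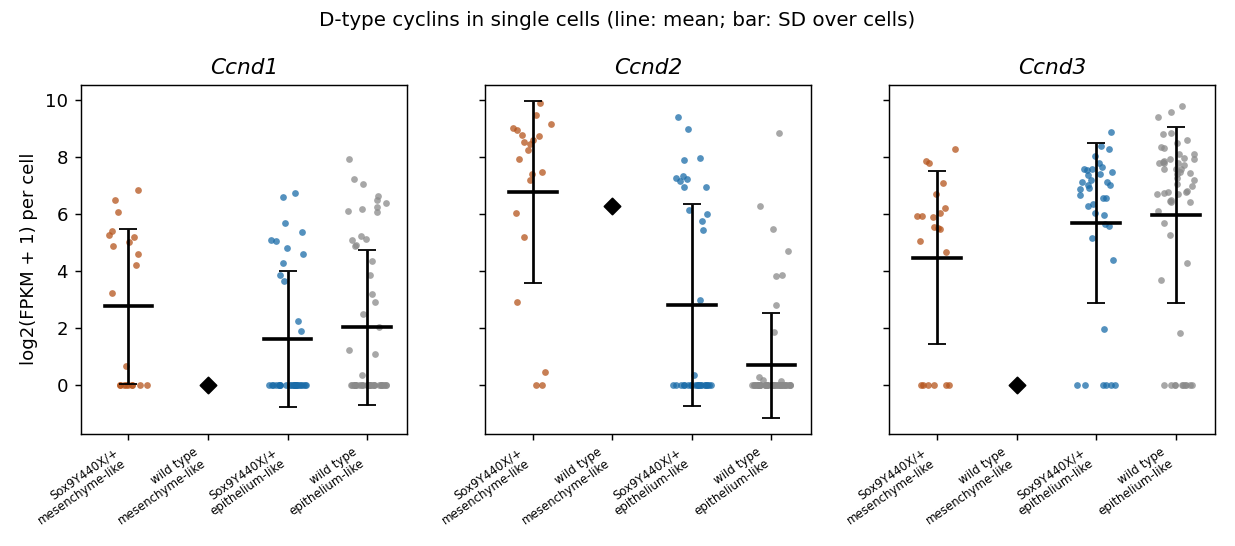
log2(FPKM + 1) of Ccnd1, Ccnd2 and Ccnd3 in each cell (points) by class and genotype, with the mean (line) and the SD over cells (bar), and the 1 wild-type mesenchyme-like cell as a diamond. Ccnd2 averaged 6.78 in Sox9Y440X/+ mesenchyme-like, 2.80 in Sox9Y440X/+ epithelium-like and 0.68 in wild-type epithelium-like cells.

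Ccnd2, the D-type cyclin best known from granule neurons, ovary and lymphocytes, varied most between the groups. Its FPKM ran from 0 through a median of 302 to 939.7 in Sox9Y440X/+ mesenchyme-like cells, from 0 through 0 to 664 in Sox9Y440X/+ epithelium-like cells and from 0 through 0 to 458 in wild-type epithelium-like cells. It reached FPKM 1 in 18 of 21 Sox9Y440X/+ mesenchyme-like cells (85.7%, 63.7% to 97.0%), 15 of 37 Sox9Y440X/+ epithelium-like cells (40.5%, 24.8% to 57.9%) and 8 of 56 wild-type epithelium-like cells (14.3%, 6.38% to 26.2%). The groups overlapped cell by cell, most Sox9Y440X/+ mesenchyme-like cells lying high and most epithelial cells at 0. Mean log2(FPKM + 1) was 6.78 ± 3.19 in Sox9Y440X/+ mesenchyme-like cells (SD, n = 21 cells), 2.80 ± 3.55 in Sox9Y440X/+ epithelium-like cells (n = 37) and 0.68 ± 1.83 in wild-type epithelium-like cells (n = 56). On that scale Sox9Y440X/+ mesenchyme-like cells were 3.98 above Sox9Y440X/+ epithelium-like cells, with 30 of the 10950 genes compared showing a larger positive difference. Sox9Y440X/+ epithelium-like cells were 2.12 above wild-type epithelium-like cells, with 38 of 10342 genes above that. Both comparisons use the Sox9Y440X/+ epithelium-like cells, and the mesenchyme-like class differs in chondrocyte markers too, as given above. The difference of 3.98 is larger than the SD over cells of either class, and that of 2.12 is smaller than the SD over Sox9Y440X/+ cells. A single wild-type cell carried 71.7% of the Ccnd2 signal of its group. Against the 22 wild-type cells in which Xist was below FPKM 1, which need not be male, the genotype difference of Ccnd2 was 2.33. Between cells of both genotypes with 2500 to 5500 genes it was 2.05.

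Ccnd2 in the mutant epithelium was concentrated in a few clusters. Cluster 2, led by Fam132a and the retinoic acid enzyme gene Aldh1a3, held 10 Sox9Y440X/+ cells and 1 wild-type cell, and Ccnd2 was detected in 9 of 10 Sox9Y440X/+ cells and in 0 of 1 wild-type cell. In cluster 8 it was detected in 3 of 5 Sox9Y440X/+ and 0 of 6 wild-type cells, in cluster 3 in 3 of 11 Sox9Y440X/+ and 3 of 11 wild-type cells, and in cluster 6 in 0 of 6 Sox9Y440X/+ and 1 of 20 wild-type cells. In cluster 1, which was ionocyte-like, it was found in 0 of 5 Sox9Y440X/+ and 2 of 8 wild-type cells. Cluster 7 held only wild-type cells, with Ccnd2 in 2 of 10. Without cluster 2 the genotype difference was 0.74, against 2.12 with it. Averaged over the 4 epithelium-like clusters with at least 5 cells of each genotype (1, 3, 6 and 8), it was 0.86, and the 4 single values were -0.95, 0.52, -0.19 and 4.06. The genotypes filled the clusters unequally, and with 1 wild-type cell cluster 2 allows no comparison of genotypes within it.

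**Figure D3:**
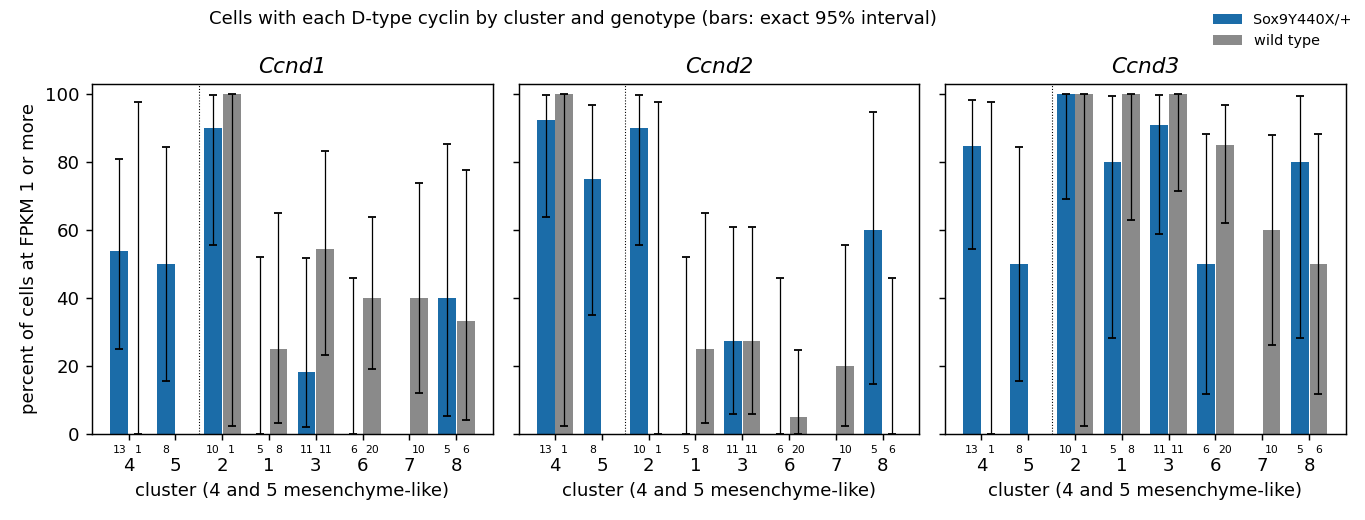
Percent of cells at FPKM 1 or more for each D-type cyclin (vertical axis) by cluster and genotype, with exact 95% intervals and the number of cells under each bar. Ccnd2 was found in 9 of 10 Sox9Y440X/+ cells of cluster 2 and in 12 of 13 Sox9Y440X/+ cells of cluster 4.

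Within the mesenchyme-like class Ccnd2 was found throughout. It was detected in 12 of 13 Sox9Y440X/+ cells of cluster 4 (mean 324 FPKM) and 6 of 8 of cluster 5 (mean 262 FPKM), and the 1 wild-type cell of cluster 4 had 76.5 FPKM with neither Ccnd1 nor Ccnd3. The Sox9Y440X/+ cell with all 7 endothelium markers had 429 FPKM, and the cell with 3 pericyte markers had 0. Reads of Ccnd2 could be shared with Gm43126, an antisense gene on the opposite strand that overlaps 372 of its exon bases. Gm43126 was detected in 14 of the 18 Sox9Y440X/+ mesenchyme-like cells with Ccnd2, in 1 of the 15 such Sox9Y440X/+ epithelium-like cells and in 4 of the 8 such wild-type epithelium-like cells. Without strand the genes of such a pair cannot be told apart in the overlap, though Ccnd2 was also detected with Gm43126 listed at 0, in 4 Sox9Y440X/+ mesenchyme-like, 14 Sox9Y440X/+ epithelium-like and 4 wild-type epithelium-like cells.

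Ccnd3, the most widely expressed of the D-type cyclins, was the main one of the epithelium in both genotypes. Its FPKM ran from 0 through a median of 45.8 to 306 in Sox9Y440X/+ mesenchyme-like cells, from 0 through 116 to 467 in Sox9Y440X/+ epithelium-like cells and from 0 through 137 to 885 in wild-type epithelium-like cells. The gene was present in 15 of 21 Sox9Y440X/+ mesenchyme-like cells (71.4%, 47.8% to 88.7%), 31 of 37 Sox9Y440X/+ epithelium-like cells (83.8%, 68.0% to 93.8%) and 46 of 56 wild-type epithelium-like cells (82.1%, 69.6% to 91.1%). The ranges overlapped widely and most cells of every group held the gene. Mean log2(FPKM + 1) was 4.47 ± 3.03 in Sox9Y440X/+ mesenchyme-like, 5.68 ± 2.80 in Sox9Y440X/+ epithelium-like and 5.95 ± 3.09 in wild-type epithelium-like cells (SD, n = 21, 37 and 56 cells). The differences of -1.21 (mesenchyme-like minus epithelium-like) and -0.27 (Sox9Y440X/+ minus wild type) were smaller than the SD over cells. The genotype difference was below -1 in clusters 1, 3 and 6 (-1.85, -1.28 and -2.25) and above 1 in cluster 8 (1.42), a mean of -0.99 over these clusters. Ccnd3 shares 361 exon bases with Bysl, a ribosome assembly gene on the opposite strand. Bysl was the gene most like Ccnd3 over the 115 cells (Pearson r = 0.54), and Ccnd3 was detected with Bysl listed at 0 in 0 Sox9Y440X/+ mesenchyme-like, 1 Sox9Y440X/+ epithelium-like and 3 wild-type epithelium-like cells. In the same order of groups, mean FPKM was 5.64, 8.50 and 8.02 for Bysl and 71.1, 121 and 178 for Ccnd3. How reads in the overlap were divided between the 2 genes is not known.

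Ccnd1, the D-type cyclin that answers most directly to growth factors and Wnt signals, was the lowest of the 3 on average in the Sox9Y440X/+ groups. It ran from 0 through a median of 8.23 to 114 FPKM in Sox9Y440X/+ mesenchyme-like cells, from 0 through 0 to 104 in Sox9Y440X/+ epithelium-like cells and from 0 through 0 to 243 in wild-type epithelium-like cells. Detection was in 11 of 21 Sox9Y440X/+ mesenchyme-like cells (52.4%, 29.8% to 74.3%), 13 of 37 Sox9Y440X/+ epithelium-like cells (35.1%, 20.2% to 52.5%) and 23 of 56 wild-type epithelium-like cells (41.1%, 28.1% to 55%). Again the groups overlapped over nearly their whole range. The difference was 1.14 for mesenchyme-like minus epithelium-like and -0.40 for Sox9Y440X/+ minus wild type, both smaller than the SDs over cells of 2.73 in Sox9Y440X/+ mesenchyme-like, 2.38 in Sox9Y440X/+ epithelium-like and 2.72 in wild-type epithelium-like cells. In the epithelium 9 of the 13 Sox9Y440X/+ cells with Ccnd1 belonged to cluster 2. Without that cluster the differences were 2.07 and -1.26. Ccnd1 shares 1100 exon bases with Oraov1 on the opposite strand, which was at 0 in 6 of the 11 Sox9Y440X/+ mesenchyme-like, 9 of the 13 Sox9Y440X/+ epithelium-like and 12 of the 23 wild-type epithelium-like cells with Ccnd1.

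In Sox9Y440X/+ epithelium-like cells the co-occurrence of Ccnd1 and Ccnd2 lay mainly in cluster 2. Both were found in 10 of these cells, Ccnd1 without Ccnd2 in 3, Ccnd2 without Ccnd1 in 5 and neither in 19 (Pearson r of log2(FPKM + 1) = 0.53 over 37 cells). The same counts in wild-type epithelium-like cells were 5, 18, 3 and 30 (r = 0.05 over 56 cells), and in Sox9Y440X/+ mesenchyme-like cells 10, 1, 8 and 2 (r = 0.07 over 21 cells). Of the 10 Sox9Y440X/+ epithelium-like cells with both, 8 belonged to cluster 2. In the 27 outside it, both were found in 2, Ccnd1 alone of the pair in 2, Ccnd2 alone in 4 and neither in 19. With 1 wild-type cell in cluster 2, the genotypes cannot be compared on this there. Cells of 1 genotype count as 1 sample, and each r describes the cells measured.

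Cdk4, the commoner partner kinase of D-type cyclins, had the highest mean FPKM of the 8 genes in all 3 groups. It ran from 0 through a median of 517 to 1373 FPKM in Sox9Y440X/+ mesenchyme-like cells, from 0 through 197 to 1126 in Sox9Y440X/+ epithelium-like cells and from 0 through 203 to 946 in wild-type epithelium-like cells. It reached FPKM 1 in 20 of 21 Sox9Y440X/+ mesenchyme-like, 36 of 37 Sox9Y440X/+ epithelium-like and 52 of 56 wild-type epithelium-like cells, so nearly every cell held it. The mean was 561 FPKM in Sox9Y440X/+ mesenchyme-like cells, 272 in Sox9Y440X/+ epithelium-like cells and 268 in wild-type epithelium-like cells. On the log2(FPKM + 1) scale the differences were 1.36 for the classes and 0.12 for the genotypes, against SDs over cells of 2.14 in Sox9Y440X/+ mesenchyme-like, 2.08 in Sox9Y440X/+ epithelium-like and 2.47 in wild-type epithelium-like cells. Cdk4 shares 641 exon bases with Tspan31 on the opposite strand, a gene listed at 0 in 13 of the 20 Sox9Y440X/+ mesenchyme-like, 10 of the 36 Sox9Y440X/+ epithelium-like and 21 of the 52 wild-type epithelium-like cells with Cdk4.

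Cdk6, the other kinase, known for its part in blood and stem cells, was low and leaned towards the epithelium. It was detected in 5 of 21 Sox9Y440X/+ mesenchyme-like cells (23.8%, 8.22% to 47.2%), 26 of 37 Sox9Y440X/+ epithelium-like cells (70.3%, 53% to 84.1%) and 35 of 56 wild-type epithelium-like cells (62.5%, 48.5% to 75.1%). FPKM averaged 1.15 in Sox9Y440X/+ mesenchyme-like cells (highest 17.9, a cell with 74.4% of the total, and 0.308 without it), 13 in Sox9Y440X/+ epithelium-like cells (highest 87.1) and 12.4 in wild-type epithelium-like cells (highest 264, and 7.80 without that cell). Most Sox9Y440X/+ mesenchyme-like cells were at 0, and none of the 8 in cluster 5 had any. The differences were -2.07 for the classes, against SDs over cells of 1.01 in mesenchyme-like and 2.03 in epithelium-like Sox9Y440X/+ cells, and 0.56 for the genotypes. The 1 wild-type mesenchyme-like cell went the other way, with 109 FPKM. Cdk4 exceeded Cdk6 in 20 of 20 Sox9Y440X/+ mesenchyme-like, 35 of 36 Sox9Y440X/+ epithelium-like and 50 of 54 wild-type epithelium-like cells with either kinase.

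**Figure D4:**
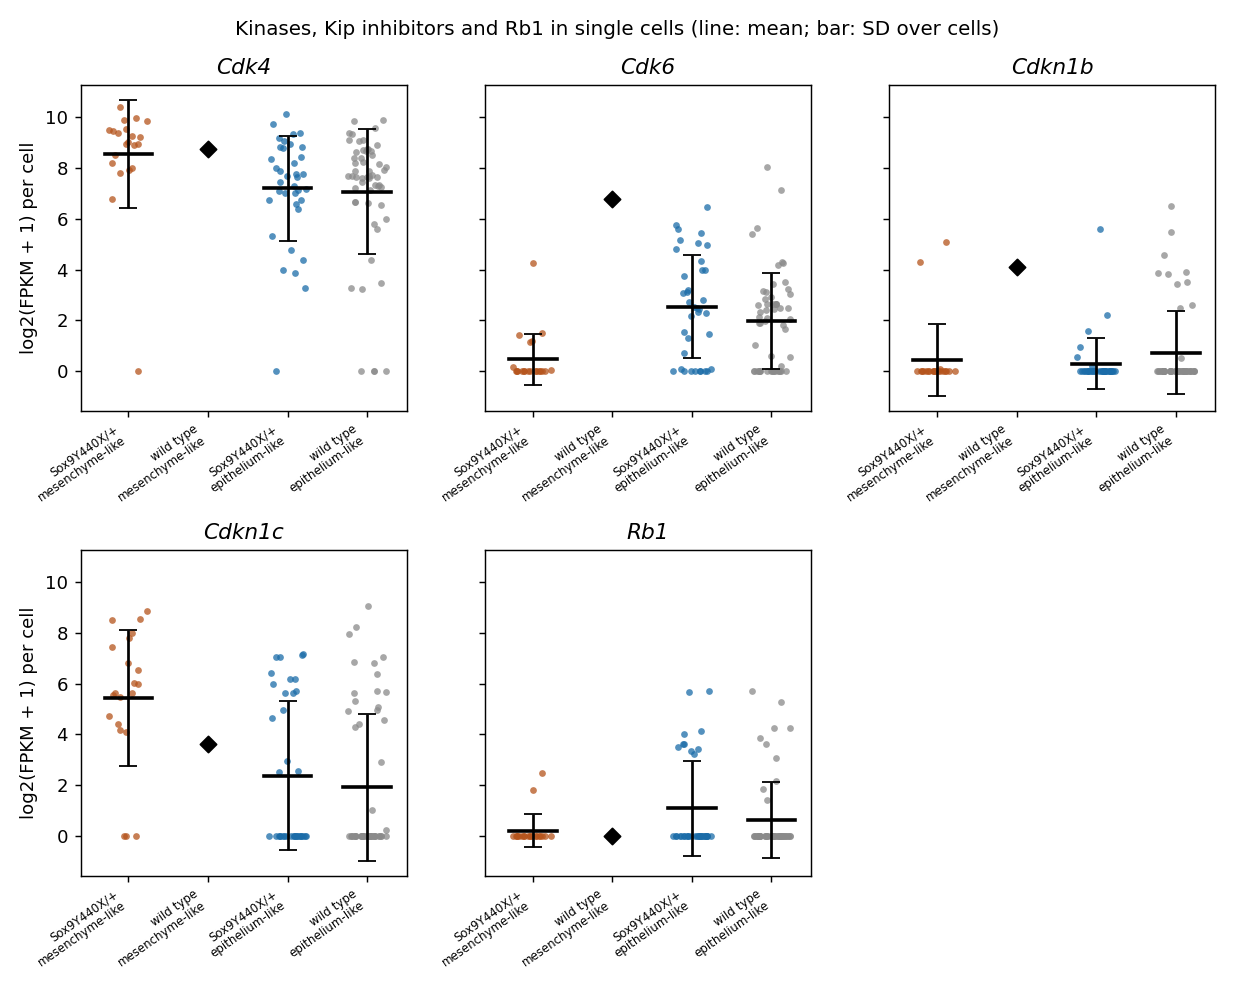
log2(FPKM + 1) of Cdk4, Cdk6, Cdkn1b, Cdkn1c and Rb1 in each cell (points) by class and genotype, with the mean (line), the SD over cells (bar) and the 1 wild-type mesenchyme-like cell as a diamond. Cdk4 was high in nearly every cell, Cdkn1c averaged 5.44 in Sox9Y440X/+ mesenchyme-like and 2.37 in Sox9Y440X/+ epithelium-like cells, and Cdkn1b and Rb1 were at 0 in most cells.

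Of the Kip inhibitors, Cdkn1c was the more often detected. Its FPKM ran from 0 through a median of 48.4 to 466 in Sox9Y440X/+ mesenchyme-like cells, from 0 through 0 to 144 in Sox9Y440X/+ epithelium-like cells and from 0 through 0 to 539 in wild-type epithelium-like cells. It was detected in 18 of 21 Sox9Y440X/+ mesenchyme-like cells (85.7%, 63.7% to 97.0%), 16 of 37 Sox9Y440X/+ epithelium-like cells (43.2%, 27.1% to 60.5%) and 19 of 56 wild-type epithelium-like cells (33.9%, 21.8% to 47.8%). The mesenchyme-like cells were mostly high and the epithelial ones mostly at 0, with overlap between all groups. The difference was 3.07 for the classes, above the SDs of 2.69 over Sox9Y440X/+ mesenchyme-like and 2.94 over Sox9Y440X/+ epithelium-like cells, and 78 of 10950 genes had a larger positive one. As for Ccnd2, the class that was higher also had more chondrocyte markers. Between the genotypes it was 0.46, below the SDs of 2.94 over Sox9Y440X/+ epithelium-like and 2.89 over wild-type epithelium-like cells, and its sign differed on another scale, the log2 ratio of mean FPKM being -0.23. The antisense gene Gm44732 overlaps 625 exon bases of Cdkn1c, and its level followed that of Cdkn1c closely (r = 0.66 over 21 Sox9Y440X/+ mesenchyme-like, 0.89 over 37 Sox9Y440X/+ epithelium-like and 0.89 over 56 wild-type epithelium-like cells). Reads in the overlap could belong to either gene.

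Cdkn1c was more often detected in mutant epithelial cells with Ccnd1 than in those without it. Of the 13 Sox9Y440X/+ epithelium-like cells with Ccnd1, 10 had Cdkn1c, against 6 of the 24 without it, and r was 0.55 over 37 cells. Outside cluster 2 Cdkn1c was found in 4 of 4 Sox9Y440X/+ epithelium-like cells with Ccnd1 and in 6 of 23 without it. In wild-type epithelium-like cells 10 of the 23 with Ccnd1 had Cdkn1c, against 9 of the 33 without it (r = 0.17 over 56 cells). By cluster, Cdkn1c was detected in 6 of 10 Sox9Y440X/+ cells of cluster 2, 4 of 5 Sox9Y440X/+ and 2 of 6 wild-type cells of cluster 8, 6 of 10 wild-type cells of cluster 7, and 0 of 6 Sox9Y440X/+ and 3 of 20 wild-type cells of cluster 6. In the mesenchyme-like class all 8 Sox9Y440X/+ cells of cluster 5 and 10 of 13 of cluster 4 had it.

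Cdkn1b, whose protein p27 is regulated largely by its breakdown, was rarely seen as RNA. It was detected in 2 of 21 Sox9Y440X/+ mesenchyme-like cells, 3 of 37 Sox9Y440X/+ epithelium-like cells and 10 of 56 wild-type epithelium-like cells. Its highest value was 32.6 FPKM in Sox9Y440X/+ mesenchyme-like, 46.9 in Sox9Y440X/+ epithelium-like and 89.2 in wild-type epithelium-like cells. The differences of 0.15 for the classes and -0.43 for the genotypes were within the SDs over cells of 1.41 in Sox9Y440X/+ mesenchyme-like, 1.01 in Sox9Y440X/+ epithelium-like and 1.63 in wild-type epithelium-like cells. Cdkn1c exceeded Cdkn1b in 18 of 18 Sox9Y440X/+ mesenchyme-like, 16 of 17 Sox9Y440X/+ epithelium-like and 19 of 24 wild-type epithelium-like cells with either gene. Neither Kip inhibitor was found in 3 of 21 Sox9Y440X/+ mesenchyme-like, 20 of 37 Sox9Y440X/+ epithelium-like and 32 of 56 wild-type epithelium-like cells.

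Rb1, the substrate of the cyclin and kinase pair, was also seen in few cells. Only 2 of 21 Sox9Y440X/+ mesenchyme-like cells had it, against 10 of 37 Sox9Y440X/+ epithelium-like and 10 of 56 wild-type epithelium-like cells. It averaged 0.340 FPKM in Sox9Y440X/+ mesenchyme-like (0.127 without the highest cell), 5.23 in Sox9Y440X/+ epithelium-like and 2.95 in wild-type epithelium-like cells. The differences were -0.88 for the classes and 0.46 for the genotypes, each below the larger SD over cells of its groups. The table lists Rb1 in 2 entries that differed in 1 cell, and they were averaged. Rb1 shares exon bases with Lpar6 (408) and Rcbtb2 (488) on the opposite strand, and Rcbtb2 was detected in 2 of the 2 Sox9Y440X/+ mesenchyme-like, 8 of the 10 Sox9Y440X/+ epithelium-like and 6 of the 10 wild-type epithelium-like cells with Rb1.

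Within each group the 8 genes can be ordered, since FPKM is scaled to length. By mean FPKM the order in Sox9Y440X/+ mesenchyme-like cells was Cdk4, Ccnd2, Cdkn1c, Ccnd3, Ccnd1, Cdkn1b, Cdk6 and Rb1. In Sox9Y440X/+ epithelium-like cells it was Cdk4, Ccnd3, Ccnd2, Cdkn1c, Cdk6, Ccnd1, Rb1 and Cdkn1b. In wild-type epithelium-like cells it was Cdk4, Ccnd3, Cdkn1c, Ccnd1, Cdk6, Ccnd2, Cdkn1b and Rb1. The lower places rest on single cells. Leaving out the highest cell of the gene in question, Cdk6 stood in place 6 and not 5 in the epithelium-like cells of both genotypes, and Ccnd2 in place 7 and not 6 in wild-type epithelium-like cells. Cdkn1b likewise stood in place 8 and not 7 in wild-type epithelium-like cells, and in place 7 and not 6 in Sox9Y440X/+ mesenchyme-like cells, where its mean was 0.943 FPKM without that cell and 2.45 with it. Neighbours in these orders were closer, in mean log2(FPKM + 1), than the larger of their SDs over cells, with the exception of Ccnd3 and Cdkn1c in wild-type epithelium-like cells, which were 4.04 apart against an SD of 3.09. A D-type cyclin and a kinase were found together in 19 of 21 Sox9Y440X/+ mesenchyme-like, 32 of 37 Sox9Y440X/+ epithelium-like and 49 of 56 wild-type epithelium-like cells. A cyclin, a kinase and a Kip inhibitor were found together in 16 of 21 Sox9Y440X/+ mesenchyme-like, 17 of 37 Sox9Y440X/+ epithelium-like and 21 of 56 wild-type epithelium-like cells.

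The differences of the members were set against those of all genes compared. Between the classes, 10950 genes reached FPKM 1 in 10% or more of 1 class, and 8.41% of them were higher by 1 log2 unit or more in mesenchyme-like cells and 16.2% lower. Of the 7 members that passed this filter (all but Cdkn1b), Ccnd1, Ccnd2, Cdk4 and Cdkn1c were higher by that much and Ccnd3 and Cdk6 lower. Between the genotypes in the epithelium, 8.01% of 10342 genes were higher by 1 log2 unit or more in Sox9Y440X/+ and 1.38% lower, and of the 8 members, all of which passed, Ccnd2 was higher by that much and none was lower. Over all genes compared the median difference was -0.19 for the classes and 0.22 for the genotypes. Since the members were chosen with these values in view, nothing is read from their counts.

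**Figure D5:**
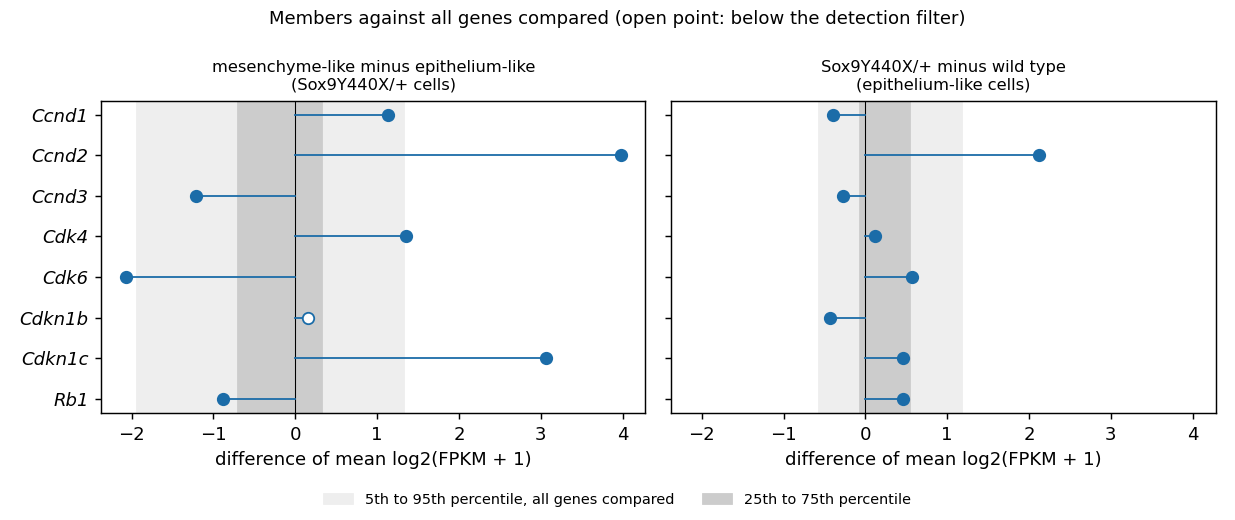
Difference of mean log2(FPKM + 1) of each member (points, horizontal axis) between classes of Sox9Y440X/+ cells (left) and between genotypes in the epithelium (right), over the range of all genes compared (grey bands). Ccnd2 lay at 3.98 and 2.12, beyond the 95th percentile of all genes in both.

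The other genes of the pathway give the setting. Cdkn1a, which encodes the related inhibitor p21, was nearly absent from the mesenchyme-like cells. It was detected in 1 of 21 Sox9Y440X/+ mesenchyme-like, 33 of 37 Sox9Y440X/+ epithelium-like and 46 of 56 wild-type epithelium-like cells. It averaged 0.119 FPKM in Sox9Y440X/+ mesenchyme-like, 567 in Sox9Y440X/+ epithelium-like and 370.1 in wild-type epithelium-like cells. The differences were -7.59 for the classes and 1.20 for the genotypes. Cdkn1a without either Kip inhibitor was found in 0 of 21 Sox9Y440X/+ mesenchyme-like, 17 of 37 Sox9Y440X/+ epithelium-like and 29 of 56 wild-type epithelium-like cells. Of these 3 inhibitors, Cdkn1a had the highest mean FPKM in the epithelium and Cdkn1c in the mesenchyme-like cells. Of the INK4 inhibitors, which bind the kinase alone, Cdkn2a was listed at 0 in all cells of these groups, and only Cdkn2d passed the filter (0.67 for the classes, 0.73 for the genotypes).

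Most listed genes of DNA replication and mitosis, which act after the D-type cyclins, had higher values in the mesenchyme-like class. Many of them passed the filter only through that class. Of 18 DNA replication genes measured, of 20 listed, 13 were higher by 1 log2 unit or more in Sox9Y440X/+ mesenchyme-like than in Sox9Y440X/+ epithelium-like cells and none was lower, with a median of 1.43 over the 18. With no filter on detection, 5.07% of 18158 genes were higher by that much. The filter kept 16 of the 18, but 6 of these only through the mesenchyme-like class, with 4 of the 13 higher ones among them. Those 6 are given as values only. Of the 10 that also reached it in the epithelium-like class 9 were higher. The largest of the 18 were Mcm6 (2.55), a subunit of the replicative helicase, Tyms (2.48), which makes thymidylate, and Mcm5 (2.22). Of 20 mitosis genes measured 18 were higher and none lower by that much, with a median of 1.52, led by Ube2c (2.80), Birc5 (2.67) and Ccnb2 (2.57). Of these 20, 15 passed the filter only through the mesenchyme-like class, with 13 of the 18 higher ones among them. Those 15 are given as values only. All 5 that also reached it in the epithelium-like class were higher. Of 8 genes measured in the cyclin E, cyclin A and CDK2 step, 4 were higher and none lower by that much (median 0.98 over the 8). Among them were Ccna2 (2.33) and Cks1b (2.05). Cdk2 (2.16) was found in 3 of 37 Sox9Y440X/+ epithelium-like cells and passed only through the mesenchyme-like class, so it is given as a value only. Of the 7 that passed, 3 did so only through the mesenchyme-like class. Of the 4 that also reached the filter in the epithelium-like class, 3 were higher. The share of all genes under that condition was not computed, so nothing is read from these counts. The mitosis genes lay with some cells only: at least 50% of the mitosis list was detected in 8 of 21 Sox9Y440X/+ mesenchyme-like, 2 of 37 Sox9Y440X/+ epithelium-like and 4 of 56 wild-type epithelium-like cells. The 1 wild-type mesenchyme-like cell had 18 of the 20.

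The remaining groups of the pathway lie around the cyclin and kinase step. Of 12 retinoblastoma relatives, E2F and DP factors measured, none differed by 1 log2 unit, the largest being Tfdp1 (0.68), an E2F partner, and E2f4 (-0.54), mainly a repressor. Of the 3 genes of the CDK-activating kinase, Ccnh was higher by that much (1.04), as were 8.41% of all genes compared between the classes. The 6 measured genes that take part in D-type cyclin breakdown all passed, but 3 of them only through the epithelium-like class. Of the 6, 2 were lower and none higher, against 16.2% of all genes compared lower, and nothing is read from so small a count. The 2 were Cryab (-6.41), a small heat shock protein and ligase cofactor, and Gsk3b (-1.62), which marks cyclin D1 for breakdown. Reference genes had a median of 0.17, and none of the 10 differed by 1 log2 unit.

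Between the genotypes in the epithelium, 3 of the 72 pathway genes measured were higher by 1 log2 unit or more in Sox9Y440X/+ cells and 1 was lower. The 3 were Cdkn1a (1.20, above), Skp2 (1.05), whose product marks p27 for breakdown, and Ddb1 (1.03), and the lower one was Mcm2 (-1.21). Of the 72, 38 passed the filter, so that the count higher lay near the 8.01% of all genes compared. Skp2 was found in 7 of 37 Sox9Y440X/+ and 0 of 56 wild-type cells and passed only through the Sox9Y440X/+ cells, so its difference is given as a value only. The median was -0.12 over the 18 DNA replication genes measured and -0.18 over the 20 mitosis genes, with Cdk1 at -0.86 and Tacc3 at -0.60. Of the 10 DNA replication genes that passed, 5 were above 0 and 5 below. Pcna stood at 0.81, found in 24 of 37 Sox9Y440X/+ and 27 of 56 wild-type cells. Of the 5 mitosis genes that passed, 3 of them only through the Sox9Y440X/+ cells, 3 were above 0 and 2 below. Cdk2 stood at -0.96, found in 3 of 37 Sox9Y440X/+ and 14 of 56 wild-type cells. It passed only through the wild-type cells and is likewise given as a value only. Of the 12 E2F family genes measured none differed by 1 log2 unit, with E2f4 at 0.996, and of the 3 genes of the CDK-activating kinase none did, with Cdk7 at 0.34. Reference genes had a median of 0.11.

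Within groups the members bore weak relations to the cycling lists. Over 37 Sox9Y440X/+ epithelium-like cells Ccnd2 had a Pearson r of 0.42 with the mean level of the DNA replication list and -0.20 with that of the mitosis list. Over 21 Sox9Y440X/+ mesenchyme-like cells the same values were 0.28 and 0.19, and over 56 wild-type epithelium-like cells 0.11 and -0.08. Cdkn1c had -0.20 and -0.14 in Sox9Y440X/+ mesenchyme-like cells. The number of genes detected per cell had an r of 0.46 with Ccnd2 in Sox9Y440X/+ mesenchyme-like cells and of 0.49 with Cdk6 in Sox9Y440X/+ epithelium-like cells, and the part of cell depth in these relations was not tested.

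The genes whose pattern over the 115 cells was most like that of a member are named here with no claim of shared control. For Ccnd2 they were Igfbp4 (Pearson r = 0.63), Igfbp2 (0.60) and Lgals1 (0.56), and for Cdkn1c Sfrp2 (0.55), Igfbp4 (0.51) and Igfbp2 (0.49). Over the 93 epithelium-like cells alone, Ccnd1 was closest to Igfbp5 (0.57), Aldh1a3 (0.51) and Lypd2 (0.41). Aldh1a3 and Lypd2 are also leading genes of cluster 2. In the same cells Ccnd2 was closest to Cep57 (0.47), Ccnd3 to Bysl (0.56), Cdk4 to Xpnpep1 (0.43) and Rb1 to Gna11 (0.42). Ccnd3 and Bysl share exon bases, as given above.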

How the data were processed

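Single cells of the endolymphatic sac were measured by Smart-seq2, and the authors deposited 1 table of FPKM values for 120 cells. Per the submitters' processing notes, HISAT2, SAMtools 0.1.18, Cufflinks, HTSeq and build mm10 were used. What each did, and with which annotation, was not given in the sources used here. Read depth is unknown, and the labels' gene number per cell equals the table's entries above 0 in all 120 cells.

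Gene IDs listed more than once (49, of which 41 had identical values in every cell) were averaged, which matters for Rb1. Cells with fewer than 1000 genes were left out. No doublet caller was used. Classes came from Ward clustering (8 clusters) of 15 principal components, computed from the 1500 genes that varied most among those found in 5 or more cells, named from marker lists. Differences are of mean log2(FPKM + 1), a scale that understates the change of low genes. FPKM totals per cell had a median of 448497 in wild-type epithelium-like cells, with a highest of 4.44e+06. The highest was 585413 in Sox9Y440X/+ mesenchyme-like and 540155 in Sox9Y440X/+ epithelium-like cells. With each cell scaled to the same total, Ccnd2 differed by 2.09 between genotypes and 4.05 between classes. The effect of that total on mean FPKM, shares and orders was not tested. Genes compared reached FPKM 1 in 10% or more of 1 group. Likeness was Pearson r over genes found in 25% or more of the cells, passing over predicted, mitochondrial and ribosomal protein genes. The likeness result for Cdk6 is not reported here. In each pathway list the genes with the largest differences were named. An exact 0 can be a failed estimate, since 2 of the 115 cells had Gapdh at 0. With 1 sample a genotype no test was possible and no p-value is given. The members, gene lists and comparisons were chosen with earlier results of these data known. Computations used Python 3.11.15, pandas 2.3.3 and SciPy 1.17.1, and were tested on simulated data. Coordinates and coding sequences are from GENCODE M21 on GRCm38, the assembly that mm10 names.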

Additional observations from a re-analysis of the deposited data

How the results depend on the processing

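Of 250 recomputed differences, 143 for the kinases, inhibitors and Rb1 and 74 for the cyclins moved little, while 14 and 19 moved. No difference that had reached 1 log2 unit changed sign. Some of those that moved little could not move. With 5 clusters, 12 clusters or classes from markers in the single cell, the groups and values were those already reported. The same held between genotypes with all 120 cells clustered, and between classes without cluster 7. Over all alternatives, Ccnd2 kept its sign at 0.74 to 2.98 between genotypes and 2.03 to 5.52 between classes. Within the single clusters 1, 3, 6 and 8 its genotype difference took both signs (-0.95, 0.52, -0.19 and 4.06). Cdk4, Cdk6 and Cdkn1c between classes ranged from 1.05 to 1.77, from -3.63 to -0.75 and from 1.68 to 4.48. The small genotype differences of Cdk4 (-0.19 to 0.47), Cdk6 (-0.12 to 0.83) and Cdkn1c (-0.23 to 1.41) took both signs.

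For the cyclins these values moved, and the cause was not tested. Between classes, Ccnd1 was 1.82 with a pseudocount of 0.1, 0.52 with 10, 1.86 in cells with 2500 to 5500 genes and 2.07 without cluster 2. Ccnd2 between classes was 2.50 with 10 as the pseudocount, and 2.03 when mean FPKM values were divided before taking log2. Ccnd3 between classes was -0.77 as that ratio, -0.74 with all 120 cells clustered, -0.61 in cells with 2500 to 5500 genes and -0.67 without cluster 2. Between genotypes, Ccnd1 was -0.91 as the ratio of means, -1.19 in cells with 2500 to 5500 genes, -1.26 without cluster 2 and -1.07 as the mean of differences within clusters. Ccnd2 between genotypes was 1.22 with a pseudocount of 10, 0.74 without cluster 2 and 0.86 within clusters, and Ccnd3 was -0.80 and -0.99 in the last 2 settings. In cells with 2500 to 5500 genes, Ccnd1 was highest in 0% of Sox9Y440X/+ mesenchyme-like cells and Ccnd2 in 0% of wild-type epithelium-like cells. The settings by cluster and without the highest cell were chosen after seeing the data. With no filter, 4.49% of 18439 genes were higher and 0.776% lower by 1 log2 unit between genotypes, and 5.07% of 18158 higher and 9.78% lower between classes. No paired analysis was possible because the labels pair no cells and no result comes from a test.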

Other observations

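The 5 cells left out, 4 Sox9Y440X/+ and 1 wild-type, had 140 to 479 genes each, and all 8 members were listed at 0 in every one of them. Every cell with Rb1 also had Cdk6, 2 of 2 in Sox9Y440X/+ mesenchyme-like, 10 of 10 in Sox9Y440X/+ epithelium-like and 10 of 10 in wild-type epithelium-like cells. Cdk6 was detected in 23.8%, 70.3% and 62.5% of all cells of these groups, and the part of cell depth was not tested. Ccnd3 and Cdk4 had a Pearson r of 0.50 over 37 Sox9Y440X/+ epithelium-like cells and of -0.13 over 56 wild-type ones. Oc90, an otoconial protein gene, was detected in 12 of 37 Sox9Y440X/+ epithelium-like cells and in 53 of 56 wild-type ones.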
